A study of Rattus norvegicus with 6 samples.

Results

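The 6 miRNAs described here are rno-miR-122-5p, rno-miR-486, rno-miR-342-3p, rno-miR-200a-3p, rno-miR-143-3p and rno-miR-128-3p (the prefix, for rat, is left out below), each best known from a cell type that is not a resident of the intervertebral disc. They are used as markers of liver, red blood cells, leukocytes, epithelium, smooth muscle and neural tissue, in that order. They were picked by name among the 204 distinct sequences that carry an established miRNA name, out of 442 distinct sequences in the deposited table, and they take up 7 of its 491 rows because miR-128-3p is entered once for each of its precursors. The libraries came from rat nucleus pulposus, the soft centre of the disc. In the IDD group (intervertebral disc degeneration, 3 libraries) the treatment label is compression for 4 weeks, and in the Sham group (3 libraries) it is K-wires for 4 weeks. Strain, sex, age and any pooling of animals are not given in the labels, and whether the libraries of a group stem from different animals is not stated, so p-values speak to the spread among these 6 libraries alone. The comparison of the groups asks whether the levels of miRNAs from other tissues differ between degenerated and control discs.

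A mature miRNA is a single strand of about the length seen here that is cut from a hairpin precursor and loaded into an Argonaute protein, which it guides to mRNAs that pair with its seed, bases 2 to 8. Some miRNAs are made almost exclusively in 1 lineage, and such miRNAs serve as tracers of that lineage in bulk RNA. The adult nucleus pulposus has no blood vessels of its own, whereas the tissue around the disc holds vessels, blood, nerve fibres and muscle. In bulk RNA, fewer cells of a type and less of the miRNA per cell cannot be told apart.

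The mature sequences are shown because the seeds decide which other miRNAs could share targets, and the full sequences decide whether tags could be confused with one another. Seeds are in capitals, and sequences are as deposited.
miR-122-5p: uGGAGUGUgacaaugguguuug
miR-486: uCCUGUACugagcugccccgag
miR-342-3p: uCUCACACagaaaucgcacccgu
miR-200a-3p: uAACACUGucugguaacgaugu
miR-143-3p: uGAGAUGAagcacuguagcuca
miR-128-3p: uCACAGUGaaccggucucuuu
The 6 seeds all differ, and no other listed sequence carries any of them at bases 2 to 8. No other listed sequence lay within 2 edits of a member, contained one or was contained in one. The nearest neighbours were 8 edits away, or 10 for miR-342-3p. RefSeq's mature sequences (GRCr8) were identical for the 4 members found there by name.

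The most abundant named sequence of these libraries, the muscle miRNA miR-1b, resembles miR-122-5p at its 5′ end. It is printed with bases 2 to 8 in capitals.
miR-1b: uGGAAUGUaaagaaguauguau
Over the first 8 bases the single difference is G5A, with miR-122-5p's base first and positions counted from 1 at the 5′ end. Over the full length the sequences are 9 edits apart. miR-27b-3p holds the miR-128-3p seed shifted by a base, at bases 3 to 9 (capitals), and is 9 edits from miR-128-3p as a whole.
miR-27b-3p: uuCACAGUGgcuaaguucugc

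RefSeq hairpins on GRCr8 contained the deposited sequence of 5 of the 6 members, at 6 loci. Mir122 lies on chromosome 18 (chr18:61028817-61028901, plus strand), and the gene Mir3591 covers it on the opposite strand. Mir342 lies within Evl on the same strand (chr6:133329655-133329753, plus strand), and Mir143 lies within the long noncoding RNA gene Carmn (chr18:57371349-57371453, minus strand). Mir200a lies on the minus strand at chr5:171930717-171930805, within the annotated bounds of Ttll10. miR-128-3p is cut from a hairpin within R3hdm1 (Mir128-1, chr13:42251884-42251965, plus strand) and from another within Arpp21 (Mir128-2, chr8:120963795-120963878, minus strand). These last hairpins are shown, with the mature strand in capitals, because the same mature strand sits in different precursors, so that its tags cannot be assigned to either locus and were counted once.
Mir128-1: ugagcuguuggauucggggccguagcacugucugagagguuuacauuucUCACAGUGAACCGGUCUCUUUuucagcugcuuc
Mir128-2: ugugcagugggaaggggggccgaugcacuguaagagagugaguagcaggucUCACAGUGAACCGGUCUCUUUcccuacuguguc
The Mir200a hairpin is shown because miR-200a-3p, in capitals, is the member that was listed in the libraries of a single group.
Mir200a: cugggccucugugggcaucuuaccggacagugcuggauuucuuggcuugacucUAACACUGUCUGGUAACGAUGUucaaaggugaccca
No opposite arm of any member's precursor was listed in any library.

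Library totals ran from 169783 to 253807 tags and did not separate the groups. Tags under established names did: they made up 77.8% to 83.1% of tags in the IDD libraries and 49.5% to 56.2% in the Sham libraries, the rest being provisionally named tags. Levels are therefore given as named-tag CPM, that is, tags per 1000000 tags under established names, and a change of this denominator moves every member together. Its part in the differences below was not tested beyond the scalings given. Named tags numbered 95412 to 204707 per library, which makes 3 counts worth 0.00147% to 0.00314% of them. Intervals and floors cover counting error only, since reads copied by PCR are not independent molecules.

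The 6 miRNAs were all listed in the Sham libraries, and all but miR-200a-3p were listed in the IDD libraries. Together they held 1.10%, 1.18% and 1.21% of named tags in IDD 1, 2 and 3 and 1.58%, 1.59% and 1.83% in Sham 1, 2 and 3. miR-122-5p alone made up 83.6% to 88.4% of these member tags. Without it the other members held 0.135% to 0.149% of named tags in IDD and 0.233% to 0.300% in Sham.

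As shares of named tags, miR-122-5p, miR-486, miR-143-3p and miR-200a-3p were lower in every IDD library than in every Sham library, miR-342-3p was higher in every IDD library, and miR-128-3p overlapped. With all tags as the denominator, miR-122-5p, miR-486 and miR-143-3p overlapped instead, and miR-128-3p lay higher in every IDD library, as did 49.1% of the 108 tested named sequences, with 19.4% lower. Over named tags, 5 of 6 members had groups that did not overlap, where 68.5% of the same sequences did. By direction over named tags, 49.1% lay lower in IDD and 19.4% higher. In edgeR's quasi-likelihood test with TMM scaling (weighted trimmed mean of ratios), 3 of 6 members passed a Benjamini-Hochberg adjusted p of 0.05, miR-342-3p higher in IDD and miR-486 and miR-200a-3p lower, against 59.5% of all 131 tested sequences. The higher calls made up 29% of the tested sequences and the lower calls 30.5%. Without IDD 2, 1 member passed. With this many sequences passing, these counts do not set the members apart. In addition, miR-342-3p and miR-200a-3p passed the filter on low counts only through the group where they are high. With the totals of named tags as library sizes, 5 of 6 members passed, 1 higher and 4 lower in IDD, against 63.1% of 130 tested sequences, 13.1% higher and 50% lower. That scaling moved the median log2 fold change of all tested sequences from 0.03 to −0.40, so each member is also given relative to this median.

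**Figure D1:**
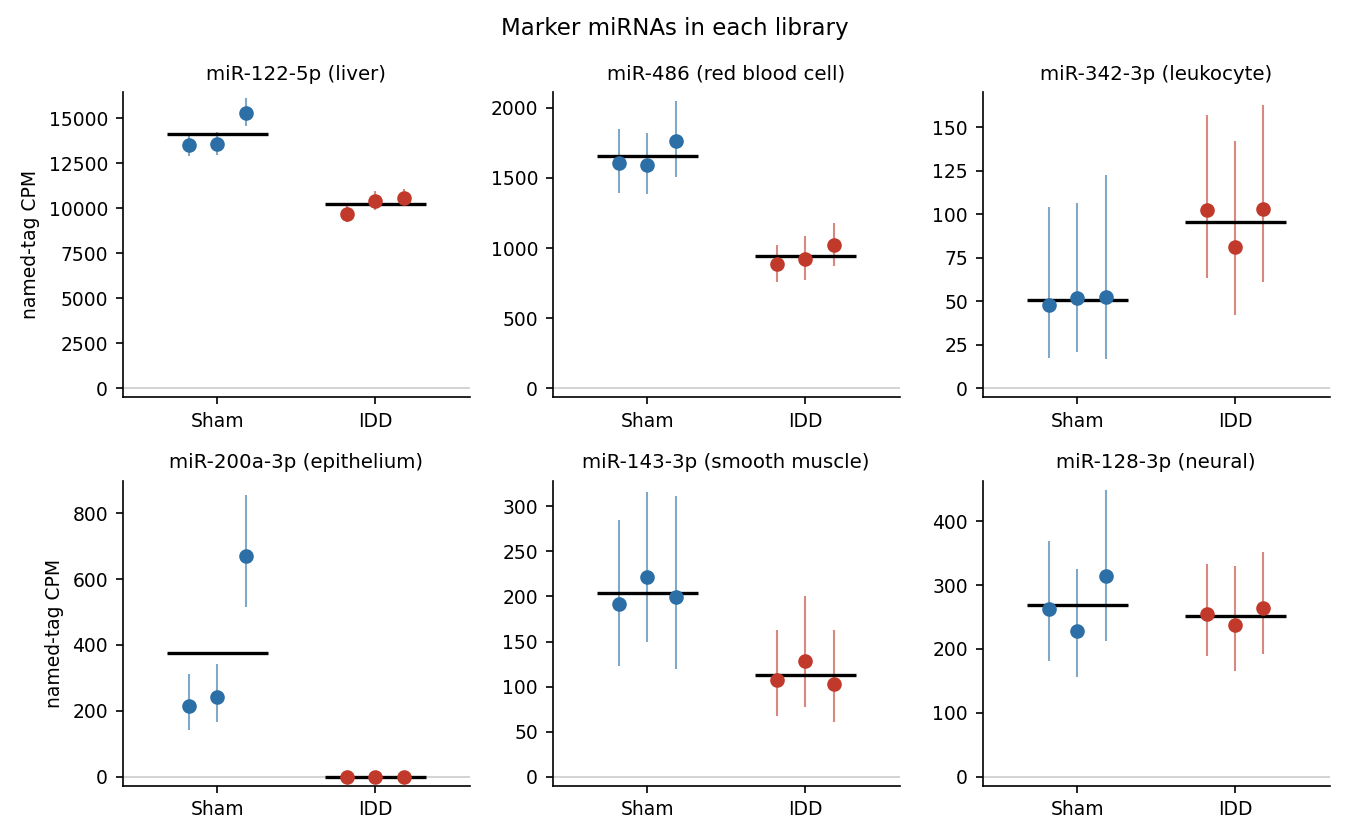
Named-tag CPM of the 6 marker miRNAs in each library (vertical axis, linear, each panel with its own scale), with Sham in blue and IDD in red. Points are libraries in the order 1, 2, 3, thin lines are 95% exact binomial intervals (counting error only, not drawn where a sequence was not listed) and horizontal bars are group means; the groups separate in every panel except that of miR-128-3p.

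miR-122-5p, the dominant miRNA of hepatocytes and also a regular constituent of blood plasma, was by far the most abundant of the markers. It had 1980, 1540 and 1852 tags in IDD 1, 2 and 3 and 1698, 1844 and 1462 tags in Sham 1, 2 and 3, and ranked 9th among named sequences in every IDD library and 10th in every Sham library. In named-tag CPM this was 9672, 10425 and 10601 in IDD and 13521, 13598 and 15323 in Sham, so that the lowest Sham library lay above the highest IDD library. The mean was 10233 ± 493 in IDD and 14147 ± 1019 in Sham (SD, n = 3 each, p = 0.1 by exact permutation, two-sided throughout, which is the floor for groups of 3). Its share of named tags was 1.38-fold higher in Sham.

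Whether this difference in miR-122-5p is seen depends on the scaling. With TMM scaling its level was 7750 ± 110 in IDD and 7991 ± 245 in Sham, in CPM of the TMM-scaled library totals (SD, n = 3 each). The TMM log2 fold change was −0.04 (SE 0.10, edgeR quasi-likelihood test, adjusted p = 0.741), and its sign turned with library totals alone (0.13), with no filter on low counts (0.02) and on the authors' normalized values (0.19). With named-tag totals the log2 fold change was −0.47 (SE 0.10, edgeR quasi-likelihood test, adjusted p = 0.000904), which is −0.07 relative to the median of all tested sequences. miR-122-5p thus lay near the middle of all tested sequences under either scaling. The medians of the tested named sequences alone were higher, 0.16 with TMM and −0.31 with named-tag totals.

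Against the muscle miRNA miR-1b, miR-122-5p had 18.6, 20.5 and 22.2 tags per 1000 in IDD 1, 2 and 3 and 33.2, 33.8 and 38.0 in Sham 1, 2 and 3. The groups did not overlap (p = 0.1 by exact permutation), as held for 66.2% of 5565 pairs of tested named sequences listed in all libraries. Whether tags of either sequence were assigned to the other was not tested. Against miR-140-3p, a miRNA of cartilage made from an intron of Wwp2, miR-122-5p had 67.3 to 71.6 tags per 1000 in IDD and 79.7 to 93.6 in Sham.

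miR-486 is abundant in red blood cells and their precursors, and is also made in skeletal and heart muscle from an intron of the ankyrin gene Ank1. It had 181, 136 and 178 tags in the IDD libraries and 202, 216 and 168 in the Sham libraries. In named-tag CPM its level was 884, 921 and 1019 in IDD and 1609, 1593 and 1761 in Sham, with no overlap. The means were 941 ± 69.7 and 1654 ± 92.8 (SD, n = 3 each, p = 0.1 by exact permutation), a 1.76-fold higher share in Sham, with an exact counting interval of 1.55 to 1.98 on the ratio of summed counts (1.75).

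miR-486 was called lower in IDD under both scalings, and had at least 136 tags in every library. Its TMM log2 fold change was −0.39 (SE 0.11, edgeR quasi-likelihood test, adjusted p = 0.0065), and with named-tag totals it was −0.81 (SE 0.12, adjusted p = 3.70e-05), −0.41 relative to the median. The call was lost with library totals alone (−0.20, adjusted p = 0.185), on the authors' normalized values (−0.16, limma, adjusted p = 0.262) and without IDD 2 (−0.33, adjusted p = 0.0514). The red blood cell list held 3 miRNAs. miR-451, the defining red cell miRNA, whose hairpin is cut by Argonaute rather than Dicer, was listed with 5 tags in IDD 1, 4 in IDD 3 and 3 in Sham 2 and was blank in the other libraries, and miR-144 from the same primary transcript was not listed. Summed over the list, red cell miRNAs held 0.0909% to 0.104% of named tags in IDD and 0.161% to 0.176% in Sham, nearly all of it miR-486.

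miR-342-3p is enriched in lymphocytes and is made from an intron of Evl. It was the rarest marker in Sham, with 6, 7 and 5 tags in Sham 1, 2 and 3, and had 21, 12 and 18 tags in IDD 1, 2 and 3. In named-tag CPM this gave 103, 81.2 and 103 in IDD and 47.8, 51.6 and 52.4 in Sham, every IDD library above every Sham library. The means were 95.6 ± 12.5 and 50.6 ± 2.48 (SD, n = 3 each, p = 0.1 by exact permutation), a 1.89-fold higher share in IDD.

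With named-tag totals miR-342-3p was the only one of the 6 members with a positive log2 fold change, and with TMM miR-128-3p (0.35) was the other. The value of miR-342-3p was 1.34 with TMM (SE 0.22, edgeR quasi-likelihood test, adjusted p = 0.000781). It was 0.93 with named-tag totals (SE 0.23, edgeR quasi-likelihood test, adjusted p = 0.0232), which is 1.32 relative to the median. The call held in all 18 alternatives run (adjusted p up to 0.0311). However, miR-342-3p passed the filter on low counts only through the IDD libraries, where it is high. Its adjusted p-values are therefore not taken as support for the rise. The numbers are small: 51 tags over the 3 IDD libraries against 18 over the Sham libraries gave a ratio of shares of 1.92 with an exact counting interval of 1.10 to 3.49.

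Of the other leukocyte miRNAs, miR-146b-5p alone was abundant enough to test, and it did not pass as higher in IDD. Of 7 names in the leukocyte list 5 were listed. miR-142, which marks the blood-forming lineages, and miR-155, which is induced in activated immune cells, were not listed, and the myeloid miRNA miR-223 appeared as its 5p arm alone, with 2 tags in each Sham library and blank in IDD. miR-150-5p, abundant in resting lymphocytes, had 3 to 5 tags in IDD libraries and 2 or 3 in Sham libraries. miR-146a-5p had 3, 2 and 5 tags in IDD 1, 2 and 3 and 3 in Sham 1, and was blank in Sham 2 and 3. The list's most abundant sequence, miR-146b-5p, had 69 to 105 tags in IDD and 66 to 90 in Sham. Its log2 fold change was −0.01 with TMM (edgeR, adjusted p = 0.975) and −0.43 with named-tag totals (edgeR, adjusted p = 0.00963), the latter −0.04 relative to the median. As a sum the leukocyte list held 0.0589% to 0.0693% of named tags in IDD and 0.0745% to 0.0820% in Sham, the opposite direction to miR-342-3p. Most of this sum was miR-146b-5p, with 269 tags over the IDD libraries and 245 over the Sham libraries. The direction of the sum turned with all tags as the denominator. With named tags without miR-1b as the denominator, the groups overlapped (p = 0.6 by exact permutation).

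miR-200a-3p belongs to a family that maintains the epithelial state by repressing Zeb1 and Zeb2. It had 27, 33 and 64 tags in Sham 1, 2 and 3 and was blank in every IDD library. In named-tag CPM the Sham levels were 215, 243 and 671, so Sham 3 held more than both other Sham libraries together (mean 376 ± 255, SD, n = 3). Set against a floor of 3 counts in each IDD library, the Sham share was at least 21.7-fold higher, and at least 13.2-fold higher without Sham 3. Over all tags these bounds were 14.6-fold and 8.49-fold. These bounds hold if a blank cell stands for at most 3 counts, and the lowest count listed anywhere in the table is 2.

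The edgeR test with TMM scaling gave miR-200a-3p an adjusted p of 0.0214, and exact permutation of its share gave p = 0.1. Because miR-200a-3p passed the filter on low counts only through the Sham libraries, where it is high, this adjusted p is not taken as support. Its call was lost in 7 of 17 alternatives, among them without IDD 2 (adjusted p = 0.128), without IDD 3 (0.053) and without Sham 1 (0.0983), whereas the fit with the replicate number as a block gave 9.34e-08. It was the single listed name of 9 in the epithelial list. miR-200b and miR-429, whose hairpins lie 689 and 950 bases from Mir200a, were not listed, and neither were the defining epithelial miRNAs miR-200c, miR-141 and miR-205. The sum of the list was therefore that of miR-200a-3p.

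miR-143-3p marks smooth muscle, where with miR-145 it supports the contractile state, and is also made by fibroblasts. It had 22, 19 and 18 tags in IDD and 24, 30 and 19 in Sham. In named-tag CPM its level was 107, 129 and 103 in IDD and 191, 221 and 199 in Sham, with no overlap. The means were 113 ± 13.7 and 204 ± 15.6 (SD, n = 3 each, p = 0.1 by exact permutation), a 1.80-fold higher share in Sham, with an exact counting interval of 1.28 to 2.62 on the ratio of summed counts (1.83).

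With TMM scaling miR-143-3p did not pass (log2 fold change −0.45, SE 0.19, edgeR quasi-likelihood test, adjusted p = 0.112). With named-tag totals it passed (−0.86, SE 0.19, adjusted p = 0.00147), at −0.47 relative to the median. Its cluster partner Mir145 lies 1278 bases away, and miR-145-5p, the defining smooth muscle miRNA, was listed in Sham 2 alone, with 3 tags. The smooth muscle sum ran from 0.0103% to 0.0129% of named tags in IDD and from 0.0191% to 0.0243% in Sham.

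miR-128-3p is enriched in neurons. It had 52, 35 and 46 tags in IDD and 33, 31 and 30 in Sham. In named-tag CPM this was 254, 237 and 263 in IDD and 263, 229 and 314 in Sham, where the IDD values lay inside the range of the Sham values (means 251 ± 13.4 and 269 ± 43.2, SD, n = 3 each, p = 0.7 by exact permutation). The ratio of summed counts, IDD over Sham, was 0.957 with an exact counting interval of 0.729 to 1.26. These counts do not tell apart ratios within that interval, which covers counting error only and is not a limit of detection.

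The sign of the miR-128-3p difference turned with the scaling. The log2 fold change was 0.35 with TMM (SE 0.17, edgeR quasi-likelihood test, adjusted p = 0.101), 0.54 with library totals alone, where it passed (adjusted p = 0.018), and −0.07 with named-tag totals (SE 0.17, adjusted p = 0.769). Relative to the median of all tested sequences it was 0.32 with TMM and 0.33 with named-tag totals. Of the 10 names in the neural list, some of them alternative names of a miRNA, 2 were listed. The neuronal miR-124 was not listed, and miR-9a-5p of neural progenitors had 2 or 3 tags in each of the 6 libraries. The neural sum was 0.0250% to 0.0280% of named tags in IDD and 0.0243% to 0.0335% in Sham.

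**Figure D2:**
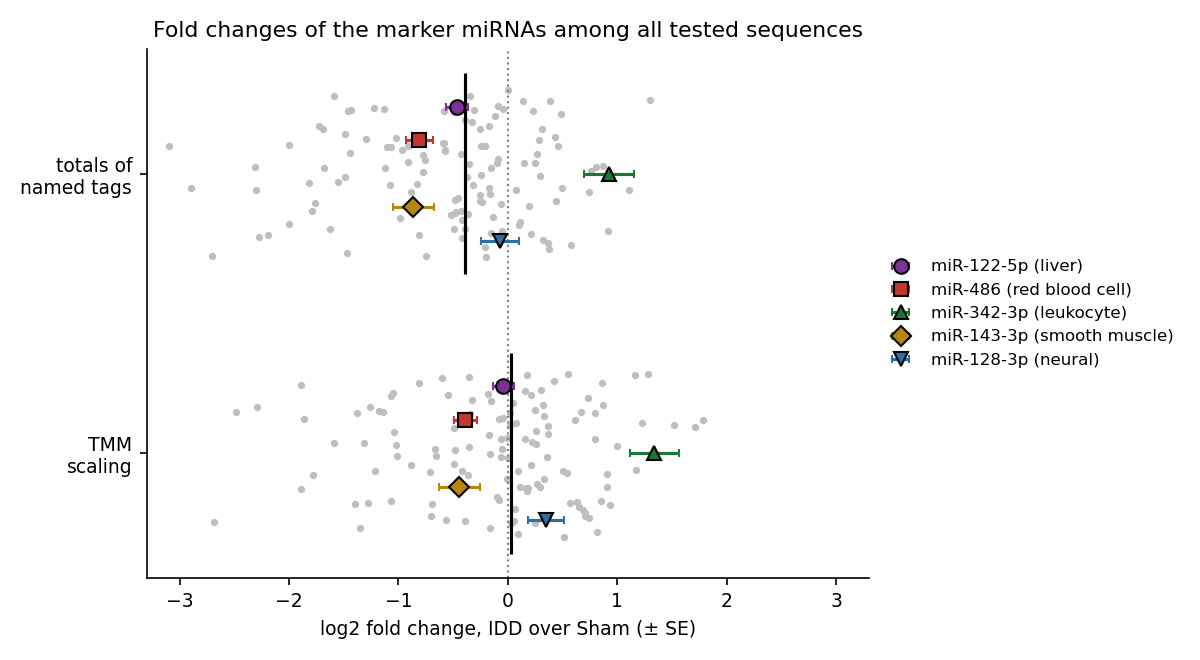
Log2 fold change of IDD over Sham (horizontal axis) for 5 marker miRNAs with their SE, under TMM scaling (lower band) and with named-tag totals as library sizes (upper band). Grey points are the other tested sequences, spread vertically at random, and black bars are the medians of all tested sequences, 0.03 and −0.40; miR-200a-3p and another sequence that was blank in a whole group lie outside the axis, and the members keep their places relative to the median in both bands.

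Ratios between members within a library do not depend on the scaling. Of the 10 pairs among the 5 members listed in all libraries, 9 had ratios that did not overlap between the groups, where 66.2% of the pairs of named sequences did not. As the pairs share members, they are not separate observations, and this count does not set the members apart. The ratio of miR-486 to miR-143-3p was the exception, at 8.23, 7.16 and 9.89 in IDD and 8.42, 7.20 and 8.84 in Sham. These means were 8.42 ± 1.38 and 8.15 ± 0.852 (SD, n = 3 each, p = 1 by exact permutation). Any difference in this ratio was within the spread between libraries, which does not show that the red cell and smooth muscle markers moved alike.

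The ratio of miR-342-3p to miR-143-3p moved most, from 0.250, 0.233 and 0.263 in Sham to 0.955, 0.632 and 1.00 in IDD. It was 3.46-fold higher in IDD by the group means (p = 0.1 by exact permutation). The counts behind it are small, so its counting error is large, and no interval was computed. miR-342-3p had 5 to 7 tags per Sham library and 12 to 21 per IDD library, and miR-143-3p had 18 to 30 tags per library. miR-486 had 30.9 to 33.7 tags for each tag of miR-342-3p in Sham and 8.62 to 11.3 in IDD. miR-122-5p had 8.41 to 8.70 tags per miR-486 tag in Sham and 10.4 to 11.3 in IDD (p = 0.1 by exact permutation). The sources of these tags were not tested.

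**Figure D3:**
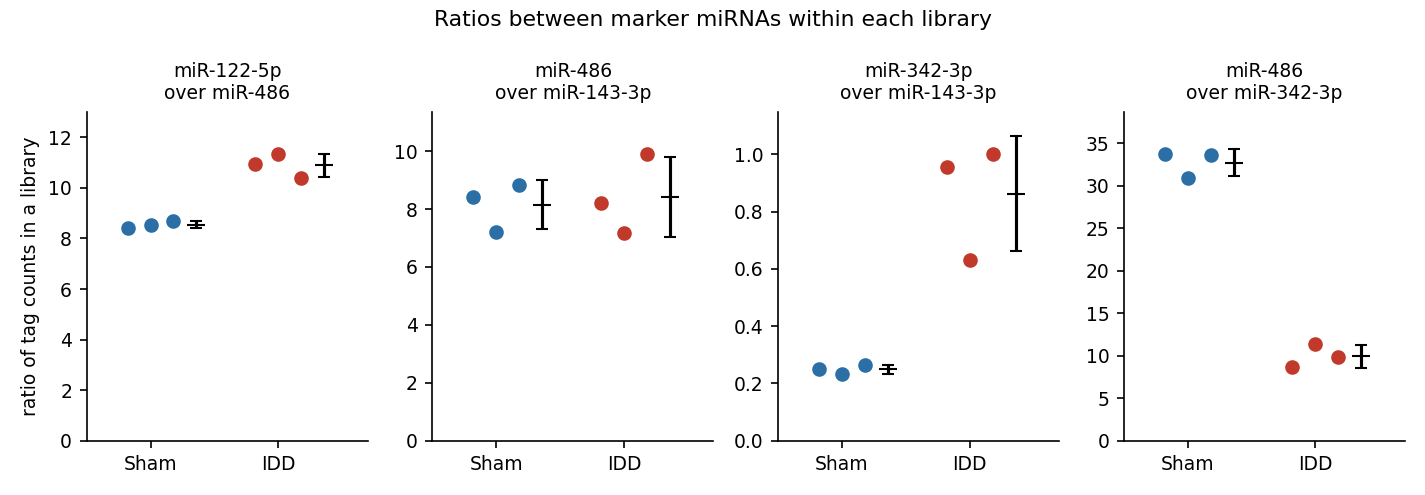
Ratio of the tag counts of 2 marker miRNAs within each library (vertical axes, linear from 0), with Sham in blue, IDD in red and mean ± SD in black. The ratio of miR-486 to miR-143-3p overlaps between the groups, and the other ratios drawn do not.

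In order of level, miR-122-5p came first and miR-486 next in each of the 6 libraries. In IDD they were followed by miR-128-3p and then by miR-143-3p and miR-342-3p, whose ranges overlapped (103 to 129 and 81.2 to 103 named-tag CPM). In Sham the level of miR-200a-3p (215 to 671) overlapped those of miR-128-3p (229 to 314) and miR-143-3p (191 to 221), and miR-342-3p was lowest. Levels of different miRNAs also carry the adaptor ligation preferences of each sequence.

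By the pattern of log2 shares over the 6 libraries, each centred on its own mean, the named sequences most like miR-122-5p were miR-872-5p and miR-320-3p (root mean square difference 0.07 and 0.09 on the log2 scale, against a median of 0.25 over 88 candidates). For miR-486 they were miR-100-5p and miR-210-3p (0.09 and 0.11, median 0.34), and for miR-143-3p miR-100-5p and let-7i-5p (0.12 and 0.14, median 0.37). The pattern of miR-342-3p was most like those of miR-21-5p and miR-29a-3p (0.12 and 0.18, median 0.65 over 89 candidates). With 5 to 21 tags of miR-342-3p per library, counting error is large in its pattern. The patterns of all members include the difference between the groups, so likeness in part restates a shared direction. miR-128-3p was most like miR-1843a-5p and miR-30c-5p (0.08 and 0.11, median 0.28).

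The markers of outside cells stood beside far larger amounts of muscle and cartilage miRNAs. The skeletal muscle list, led by miR-1b, held 48.0% to 52.2% of named tags in IDD and 40.4% to 40.9% in Sham. Nearly all of this was miR-1b, with 106291 tags in IDD 1, where miR-1-3p came next with 441. The cartilage list, led by miR-140-3p, held 15.3% to 15.9% in IDD and 15.4% to 18.1% in Sham. The defining cartilage miRNA miR-140 was thus present in every library. The list for endothelium, the cells lining vessels, held miR-126a-3p with 5 or 6 tags per IDD library and 7 to 10 per Sham library. It also held miR-126a-5p, with 2 tags in IDD 3 alone. The list summed to 0.00293% to 0.00401% of named tags in IDD and 0.00590% to 0.00796% in Sham. Skeletal muscle also lies outside the disc, and the sum of its list was higher in every IDD library (p = 0.1 by exact permutation). The TMM log2 fold changes were 0.74 for miR-1b and for miR-1-3p, 1.71 for miR-206-3p, 0.55 for miR-133a-3p and −0.08 for miR-499-5p. miR-133a-5p had 3 tags in each IDD library and 4 in each Sham library. From the same list, miR-133b, miR-133c, miR-208a and miR-208b were not listed. The 7 other lists for cells outside the disc were liver, red cell, leukocyte, epithelium, smooth muscle, neural and endothelium. All of their sums but the neural one were lower in every IDD library than in every Sham library. Each of these lower sums had p = 0.1 by exact permutation. Over the same denominator 49.1% of the tested named sequences lay lower in IDD and 68.5% did not overlap in either direction, and all of these lists but the leukocyte list rest on 1 or 2 listed sequences, so this count does not set the lists apart. With all tags as the denominator, the epithelial sum alone stayed lower without overlap, and the leukocyte and neural sums were higher in every IDD library.

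**Figure D4:**
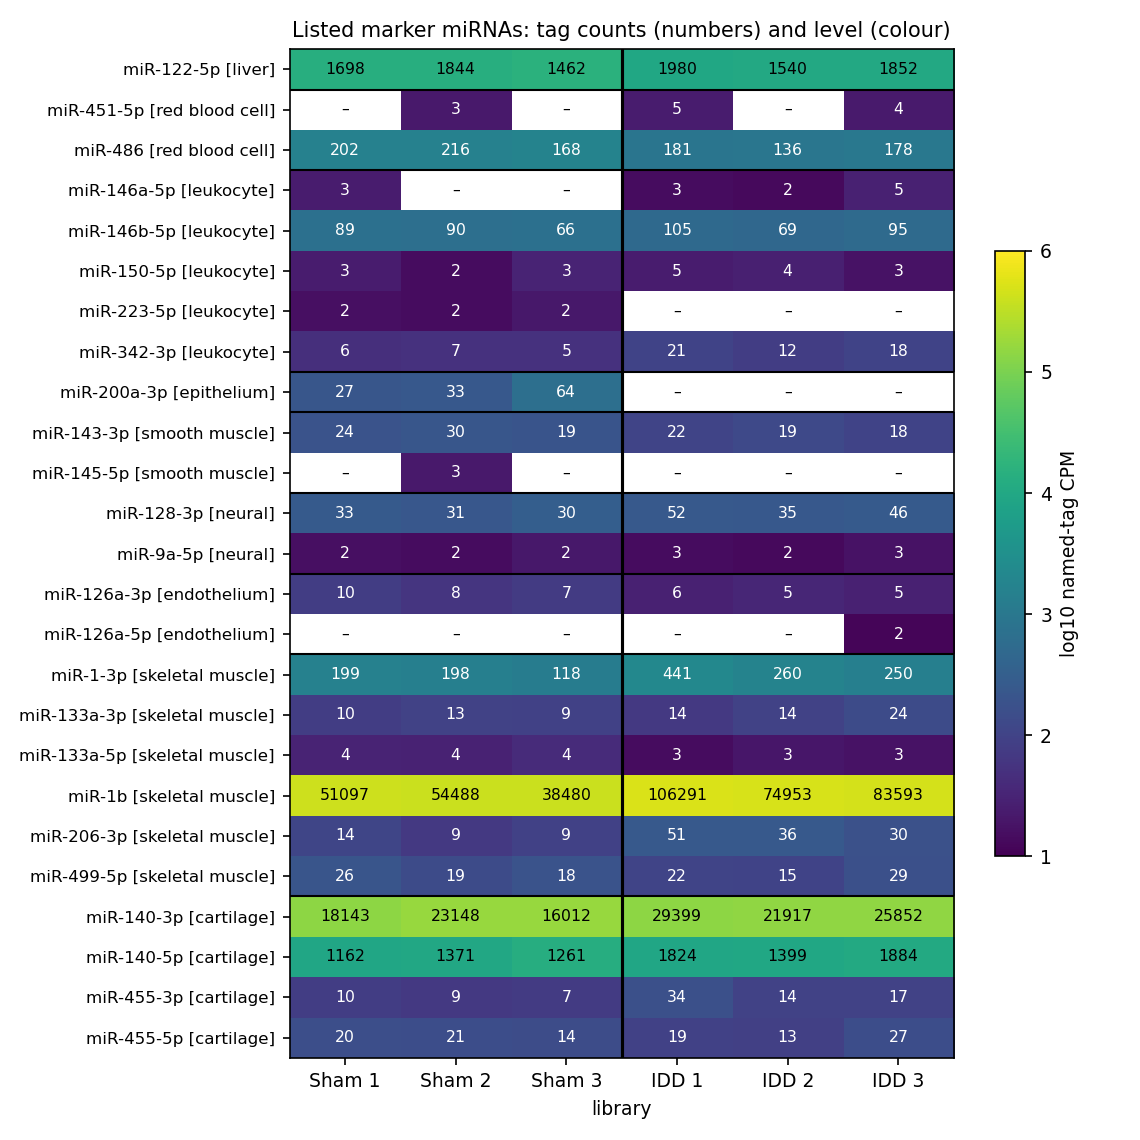
Tag counts (numbers) and log10 named-tag CPM (colour) of every listed sequence of the marker lists in each library, with Sham on the left, IDD on the right and a dash on white where a sequence was not listed. Apart from miR-122-5p and the muscle miRNAs, the defining markers of outside cells that are drawn are at a few tags or blank. The muscle miRNAs range from 3 tags (miR-133a-5p in each IDD library) to 106291 tags (miR-1b in IDD 1).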

How the data were processed

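Small RNA libraries of rat nucleus pulposus were selected by size and sequenced on an Illumina instrument, per the labels' protocols. Per the file headers, the authors deposited untransformed tag counts for each mature sequence. Tools named in the submitters' processing notes are Novoalign 3.02.12 and cutadapt 1.9.3, with the genome build Rnor_6.0. The miRNA caller was not given in the sources used here. Another deposited table holds normalized tag counts rounded by the authors, treated as a score and used as an alternative.

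Repeated rows of a sequence, with identical counts, were counted once, and blank cells were set to 0, although the lowest listed count of 2 leaves 1 possible. Sequences were filtered with filterByExpr (minimum count 10), scaled with TMM and compared by edgeR's quasi-likelihood test with robust estimation (edgeR 4.0.16, R 4.3.3), two-sided, with Benjamini-Hochberg adjustment over all 131 tested sequences. The SE was derived by dividing the log2 fold change's size by the square root of F. Shares of named tags were compared by exact permutation, and counting intervals are exact (Clopper-Pearson, 95%). Alternatives used other scalings, filters and denominators, DESeq2 1.42.0, limma 3.58.1, a replicate block and each library left out.

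Groups share the numbers 1 to 3. Deviations from the group means correlated between same-numbered libraries (r = 0.111, 0.112 and 0.204), all above 0.1, so the replicate number was added as a block in 1 alternative. The reported fit and the exact permutation tests are unpaired. No label states the pairing, and the differently numbered IDD 2 and Sham 1 reached 0.109.

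The members, the marker lists and the rules for named miRNAs were chosen with earlier results of these data known. The rules name the members, the defining and most abundant listed markers of each list, and for each member listed in all libraries the 2 named sequences with at least 10 counts per library whose pattern was most like it. Lists were matched by name. Hairpins and mature sequences are from RefSeq (GRCr8), and host genes are those whose annotated bounds cover the hairpin.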

Additional observations from a re-analysis of the deposited data

How the results depend on the processing

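The count of called sequences was 78 and lay between 56 and 90 in the alternatives except with no filter on low counts (285 of 442), and the count of called members was 3. It was 5 with named-tag totals, 4 with no filter (2 higher, 2 lower), and 2 with DESeq2 size factors, with library totals alone (both higher), over sequences listed in all libraries and with repeated rows kept. With a library left out it was 1 to 3, the lowest without IDD 2. With library totals alone, 52 calls were higher and 29 lower, with named-tag totals 17 and 65, and on the authors' normalized values 60 and 30, against 38 and 40 in the reported fit. The log2 fold change of miR-122-5p was 0.13 with library totals alone, 0.020 with no filter, 0.19 on the authors' normalized values and −0.47 (past the threshold) with named-tag totals. That of miR-486 missed the threshold with library totals alone (−0.20) and on the authors' values (−0.16), and ran from −0.45 to −0.33 with a library left out. miR-143-3p passed with named-tag totals (−0.86) and with TMM over named sequences alone (−0.58). miR-128-3p passed with library totals alone (0.54), with no filter (0.42) and on the authors' values (0.51), and was −0.069 with named-tag totals. The fitted log2 value of miR-200a-3p, which is no bound, missed the threshold with DESeq2 size factors (−8.49), library totals alone (−8.38), TMM over named sequences alone (−8.54) and repeated rows kept (−8.45), and ran from −8.71 to −7.98 with a library left out.

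Differences in share, IDD minus Sham in CPM of the denominator, turned sign with all tags as the denominator for miR-122-5p and the liver list (715), miR-128-3p (59.9) and the leukocyte (104), neural (62.9) and cartilage (34566) lists. They also turned with named tags without miR-1b as the denominator for miR-128-3p (54.0) and the neural (55.4) and cartilage (25829) lists. With a library left out the miR-128-3p difference ran from −37.2 to 5.73 and that of the neural list from −40.5 to 5.51, positive without Sham 3. Apart from the denominators and scalings themselves, the cause of these changes was not tested.

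The fit with the replicate number as a block, which takes the numbers to pair the libraries, called 80 sequences and changed no member's call (log2 fold change −0.39 for miR-486, adjusted p = 0.0136, and 1.32 for miR-342-3p, adjusted p = 0.000843). Depth limits miR-342-3p, at 5 to 7 tags per Sham library, and miR-200a-3p, whose fold can only be bounded.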

Other observations

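Other miRNAs that are abundant in liver beside miR-122, chosen after the values were seen, were looked up in the same libraries. miR-192-5p had 20, 13 and 16 tags in IDD 1, 2 and 3 and 13, 14 and 10 in Sham 1, 2 and 3, or 0.00924% ± 0.000491 and 0.0104% ± 0.0000837 of named tags (SD, n = 3 each). miR-148a-3p, which is also made in many other tissues, had 218 to 293 tags in IDD and 147 to 242 in Sham, or 0.143% ± 0.0275 and 0.170% ± 0.0202 of named tags. miR-194, miR-802 and miR-885 were not listed. The source of the miR-122-5p tags was not tested.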
